A study of Mus musculus with 7 samples.

Results

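Voltage-gated calcium and sodium channels were described here in reporter-sorted, glucagon-producing alpha cells of the mouse pancreas, with and without a deletable Nkx2-2 gene. The set was chosen by gene symbol and not by any measured value. It holds the 40 genes, of 55536 in the deposited count table, that encode the pores and auxiliary subunits of these channels: 10 calcium pore genes (Cacna1), 4 alpha2delta genes (Cacna2d), 4 calcium beta genes (Cacnb), 8 calcium gamma genes (Cacng), 10 sodium pore genes (Scn with an a) and 4 sodium beta genes (Scn with a b). Control cells (n = 4 libraries) came from Nkx2.2+/+;Gcg-iCre;Rosa26:tdTomato mice and knockout (KO) cells (n = 3 libraries) from Nkx2.2fl/fl;Gcg-iCre;Rosa26:tdTomato mice, with the strain written C57B1/6J (C57BL/6J) in the series' design text, which writes the reporter locus as Rosa25. All 7 libraries therefore share the Cre driven from the glucagon gene and the red reporter, and the sort took cells by that reporter, so that the gate holds any cell in which the reporter had recombined. Age, sex, and whether animals were pooled are not given in the sources used here, so that the p-values measure the spread between these libraries. The comparison addresses which genes depend on Nkx2-2, a homeodomain transcription factor, in alpha cells in vivo.

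A voltage-gated calcium channel is built on a large pore-forming alpha1 subunit that senses voltage, with an alpha2delta subunit on the outside and a beta subunit on the inside that bring it to the membrane and set its gating. Pores fall into L-type, P/Q-type, N-type and R-type channels, which open at strong depolarization, and T-type channels, which open near the resting potential and need neither auxiliary subunit to reach the surface. Sodium channels have a single large pore protein and small beta subunits that are adhesion proteins. In alpha cells, T-type and sodium channels take part in firing action potentials at low glucose, and calcium entry through P/Q-type and L-type channels triggers the release of glucagon granules.

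The libraries held 45483504 to 72456557 counts, of which the 40 genes took 0.106 to 0.156% in controls and 0.129 to 0.168% in KO. The 4 libraries labelled control had 8596, 11199, 12297 and 9782 normalized counts of Nkx2-2 and the 3 labelled KO had 7758, 7534 and 7694, which is 73.2% of the control mean (log2 fold change -0.45, DESeq2 adjusted p = 0.0218, edgeR adjusted p = 0.152). That call was lost on leaving out control 2, control 3 or any of the KO libraries, with adjusted p up to 0.156. These counts are of the whole gene, and the deleted part is not given in the sources used here, so that they check the deletion only in part. Gcg, the defining alpha cell marker, was at 6164736 to 8050552 normalized counts in controls and at 2837930 to 4098502 in KO. Of the 7 alpha cell markers, 6 were lower in KO. Control 4 was the deepest library and stood above the other controls for several large channel genes, so that results which rest on it are given with and without it. In bulk RNA, fewer cells of a type and less RNA per cell cannot be told apart.

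Of the 40 channel genes, 31 had counts high enough for an adjusted p-value. DESeq2 called 8 of them at an adjusted p under 0.05, against 4.51% of the 17571 genes tested. Higher in KO were 5 (Cacna1g, Cacna1h, Cacna2d2, Cacna2d3 and Cacng5), against 2.24% of all genes tested. Lower in KO were 3 (Cacna1d, Cacna2d4 and Cacng4), against 2.27% of all genes tested. The quasi-likelihood test of edgeR called 4 of 32 channel genes (Cacna1g, Cacna1h, Cacna2d2 and Cacng4), against 1.05% of all genes it tested. The libraries of the groups did not overlap in normalized counts for 14 of the 31, with the KO above in 8 and below in 6, against 12.0% of all genes tested. The median log2 fold change of the 31 was 0.08, beside 0.01 over all genes tested. Every called gene belongs to a family named for calcium channels. None of the 10 sodium channel genes with an adjusted p passed the threshold, which is near the 4.51% called among all genes tested. Whether calcium and sodium channel genes differ in that respect was not tested.

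**Figure D1:**
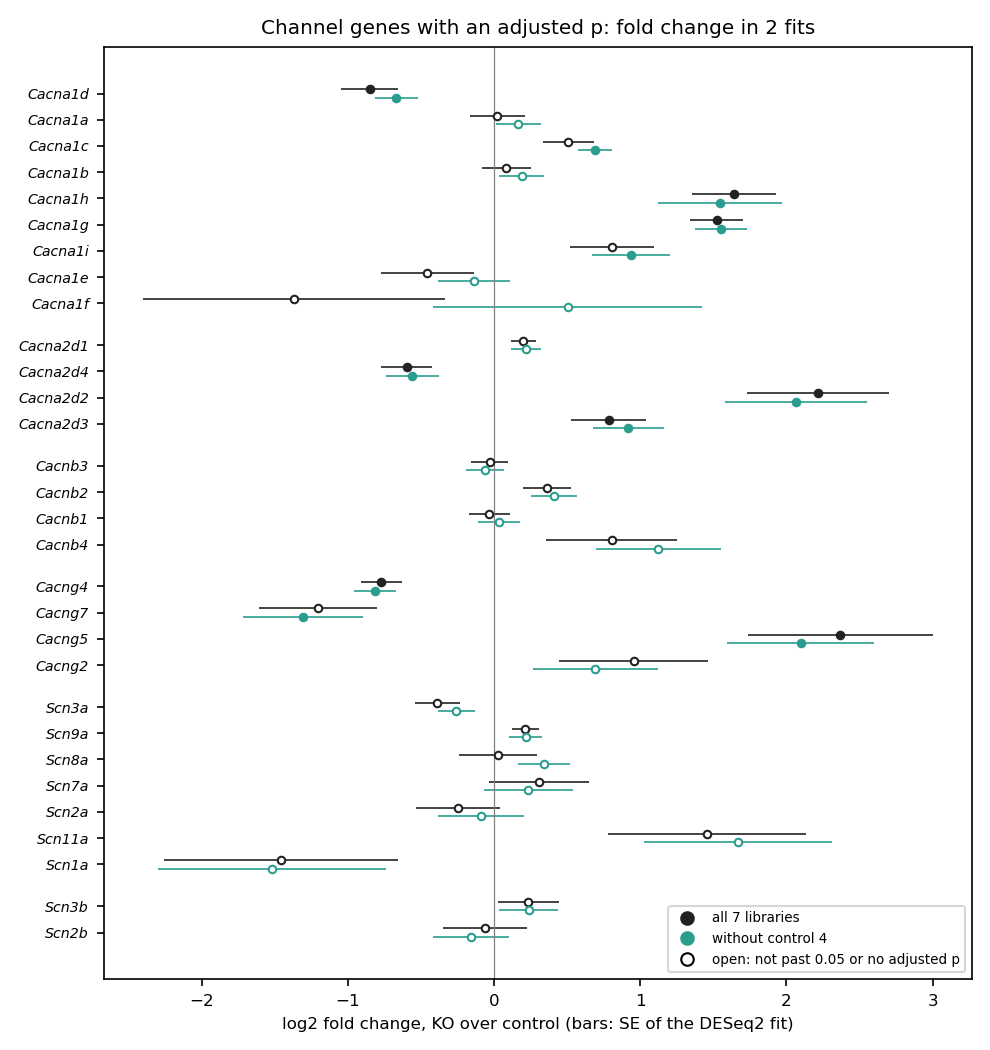
Log2 fold change (KO over control, x axis) of the channel genes with an adjusted p that are described, with its SE, grouped by role. Black symbols are the fit of all 7 libraries and green ones the fit without control 4. Filled symbols passed the threshold in DESeq2. The called genes lie between 2.37 (Cacng5) and -0.85 (Cacna1d), and Cacna1c is filled in the fit without control 4 and open with it.

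The remaining 9 genes were at or near the limit of detection and had no adjusted p. Among them were Cacna1s, the skeletal muscle L-type pore, Cacng1, Cacng3, Cacng6 and Cacng8 of the gamma family, Scn4a, the skeletal muscle sodium pore, Scn10a and Scn4b. Scn4a reached at most 20 counts in a library and Cacng3 at most 14. Cacna1s had 10 counts or fewer in each control and 0 in every KO library, which allows up to 3 independent fragments. No fold change is given for these genes.

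**Figure D2:**
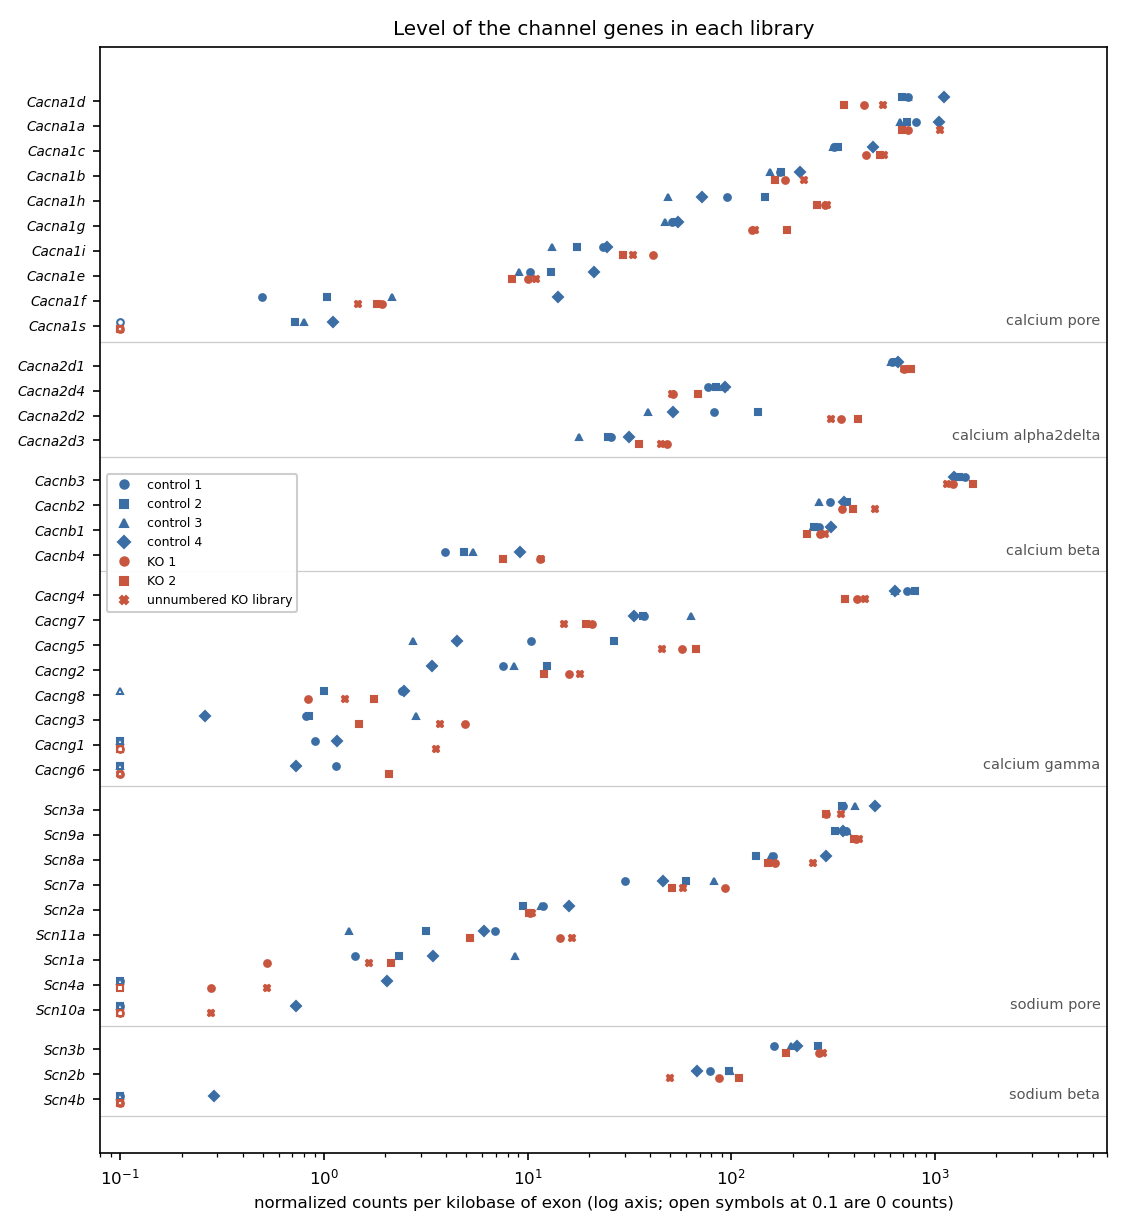
Normalized counts per kilobase of exon (x axis, log scale) of the channel genes by role, 1 symbol per library, controls in blue and KO in red. Open symbols at the left edge are libraries with 0 counts. Cacnb3 has the highest control level, at 1332, and the genes without an adjusted p lie at the left of the plot.

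Among calcium pores, levels per kilobase of exon in controls were led by Cacna1d, an L-type pore, at 816 ± 192 (SD, n = 4), and Cacna1a, the P/Q-type pore, at 815 ± 164, which did not differ beyond their spread. Next came Cacna1c, the other L-type pore of islet cells, at 366 ± 87.8, and Cacna1b, the N-type pore, at 181 ± 26.4. The T-type pores Cacna1h, at 90.6 ± 41.8, and Cacna1g, at 51.6 ± 3.204, overlapped between libraries, and Cacna1i, Cacna1e and Cacna1f were at 19.6, 13.4 and 4.46. In KO the order changed to Cacna1a at 827 ± 203 (SD, n = 3), Cacna1c at 520 ± 55.5, Cacna1d at 453 ± 98.6, Cacna1h at 283 ± 15.96, Cacna1b at 192 ± 33.2 and Cacna1g at 148 ± 35.1. The ranges of Cacna1c and Cacna1d overlapped between KO libraries, while within each KO library Cacna1d was below Cacna1c, at ratios from 0.662 to 0.983. With the length of the longest transcript in place of all exons, Cacna1a and Cacna1d traded places at the head of the control order, as did Cacna1i and Cacna1e further down.

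Of the 3 T-type pores, 2 were called, both higher in KO, against 2.24% of all genes tested that were called higher. Cacna1g (ENSMUSG00000020866, chromosome 11, 94408391 to 94474198, minus strand, GRCm38) codes for Cav3.1, a low-threshold pore. It had 521, 538, 480 and 556 normalized counts in controls 1 to 4. The KO libraries, in the order 1, 2 and unnumbered (as in all later sentences), had 1279, 1915 and 1322. The controls lay within a narrow band and every KO library stood above all of them, with KO 2 the highest. The means were 524 ± 32.5 and 1505 ± 355, a 2.87-fold difference (log2 fold change 1.52, SE 0.18, DESeq2 adjusted p = 4.17e-14, edgeR adjusted p = 0.00725).

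Cacna1h (ENSMUSG00000024112, chromosome 17, 25374285 to 25433783, minus strand) codes for Cav3.2, another low-threshold pore. Its controls were spread wider, at 936, 1428, 476 and 699 normalized counts, and the KO libraries were close together at 2825, 2585 and 2877. Control 2 was the highest control and still lay below every KO library. The mean rose 3.12-fold, from 885 ± 408 to 2762 ± 156 (log2 fold change 1.64, SE 0.29, DESeq2 adjusted p = 1.84e-06, edgeR adjusted p = 0.0448). Without the 2 deepest libraries the DESeq2 adjusted p of Cacna1h was 0.0829, and in edgeR without control 4 it was 0.0543. The ratio of Cacna1h to Cacna1g per kilobase ran from 1.03 to 2.76 in controls and from 1.40 to 2.29 in KO, so that it overlapped between groups.

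Cacna1i, which codes for the remaining T-type pore Cav3.3, had 230, 172, 129 and 243 normalized counts in controls and 407, 289 and 324 in KO (named after its values were seen). The groups did not overlap. The log2 fold change of 0.81 (SE 0.29) was not past the threshold in DESeq2 (adjusted p = 0.0859), and without control 4 it was 0.94 with an adjusted p of 0.0140.

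The L-type pores gave fold changes of opposite sign. Cacna1d (ENSMUSG00000015968, chromosome 14, 30039939 to 30491455, minus strand) codes for Cav1.3, which opens at less depolarized voltages than Cav1.2. It had 9352, 8661, 9289 and 13918 normalized counts in controls and 5649, 4503 and 6990 in KO. Control 4 stood far above the other controls, and the highest KO library was still below the lowest control. The mean fell 1.80-fold, from 10305 ± 2429 to 5714 ± 1245 (log2 fold change -0.85, SE 0.19, DESeq2 adjusted p = 0.000737), while edgeR gave an adjusted p of 0.1. The call held in all 7 DESeq2 fits that left out 1 library each, with log2 fold changes from -1.02 to -0.67. Without control 4 the DESeq2 adjusted p was 0.000323, and edgeR without control 4 did not call Cacna1d. The 1.80-fold difference of the means includes control 4.

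Cacna1c (ENSMUSG00000051331, chromosome 6, 118587240 to 119196418, minus strand) codes for Cav1.2, the L-type pore of heart and smooth muscle that islet cells also use. Its libraries held 6766, 7059, 6662 and 10535 normalized counts in controls and 9690, 11427 and 11933 in KO. Control 4 lay above KO 1, and the other 3 controls lay below every KO library. The log2 fold change was 0.51 (SE 0.17) and was not past the threshold in DESeq2 (adjusted p = 0.0729) or in edgeR (adjusted p = 0.284). Without control 4 it was 0.69, with adjusted p-values of 3.9e-07 in DESeq2 and 0.0158 in edgeR. In that DESeq2 fit 11 channel genes were called, against 5.28% of all genes tested, and the 3 gained were Cacna1c, Cacna1i and Cacng7.

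The ratio of Cacna1d to Cacna1c within a library does not depend on the scaling between libraries. Per kilobase of exon it was 2.32, 2.06, 2.34 and 2.22 in the controls, against 0.979, 0.662 and 0.983 in the KO libraries. Control 4, which was high for both genes, had a ratio inside the range of the other controls. Every KO library lay below 1 and every control above 2. Over the longest transcripts instead, the ratio was 1.67 to 1.90 in controls and 0.537 to 0.798 in KO. This ratio was computed after the values of both genes were known and is given with no test.

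**Figure D3:**
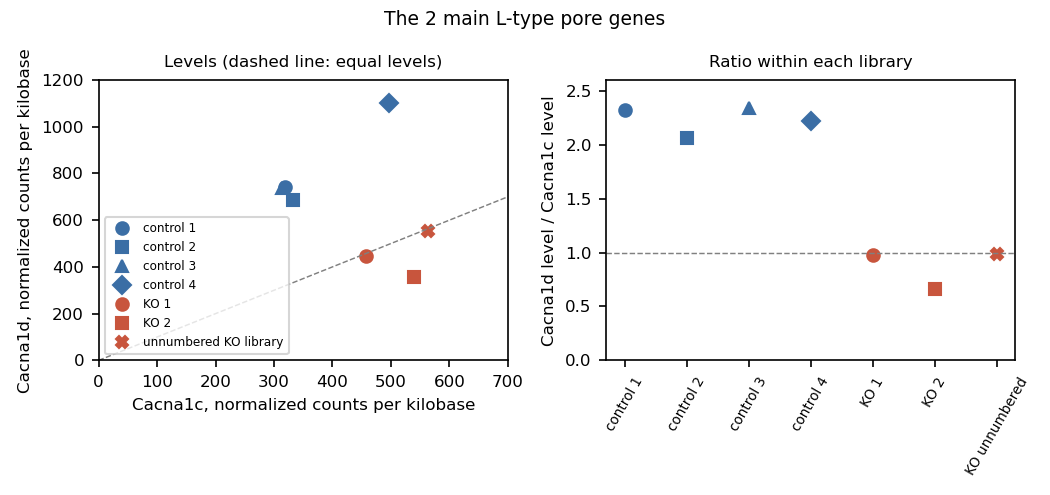
Levels of Cacna1c (x axis) and Cacna1d (y axis), the L-type pore genes, in normalized counts per kilobase of exon, 1 symbol per library (left), and their ratio in each library (right). The 4 controls lie above the line of equal level, at 2.06 to 2.34 times as much Cacna1d as Cacna1c, and the 3 KO libraries lie below it, KO 2 the farthest, at a ratio of 0.662.

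The other high-voltage pores did not pass the threshold. Cacna1a (ENSMUSG00000034656, chromosome 8, 84388440 to 84640246, plus strand), whose P/Q-type channel sits close to the release sites of granules and vesicles, had 9273, 8293, 7716 and 11940 normalized counts in controls and 8389, 7844 and 12110 in KO. Control 4 and the unnumbered KO library were high and the rest lay together, so that the groups overlapped (log2 fold change 0.02, SE 0.19, adjusted p = 0.999). Cacna1b, the N-type pore, had 1722, 1754, 1548 and 2167 in controls and 1825, 1624 and 2269 in KO, with the same libraries high (log2 fold change 0.08, adjusted p = 0.993). For Cacna1e, the R-type pore, the log2 fold change was -0.46 (adjusted p = 0.719). Cacna1f, the retinal L-type pore, was low, at 4.54, 9.44, 19.6 and 129 normalized counts in controls and 17.6, 16.5 and 13.3 in KO, with control 4 far above the others (log2 fold change -1.37, adjusted p = 0.768). Without control 4 the log2 fold change of Cacna1f was positive, at 0.50, with no adjusted p.

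Summed over the calcium pores, the level per kilobase was 2359 ± 471 in controls and 2469 ± 353 in KO, a difference within the spread. T-type genes made up 7.66, 10.1, 5.45 and 4.95% of that sum in the controls, against 19.9, 21.6 and 15.9% in KO. L-type genes made up 47.4 to 52.9% in controls and 38.9 to 40.1% in KO. P/Q-type and N-type shares stayed within the spread, at 34.5% ± 1.30 and 33.2% ± 3.25 for P/Q-type and 7.72 and 7.75% for N-type. Within the L-type share, Cacna1d went from 34.5 to 18.2% of all pore transcripts and Cacna1c from 15.4 to 21.2%. These shares restate the gene values above and are given with no test of their own.

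**Figure D4:**
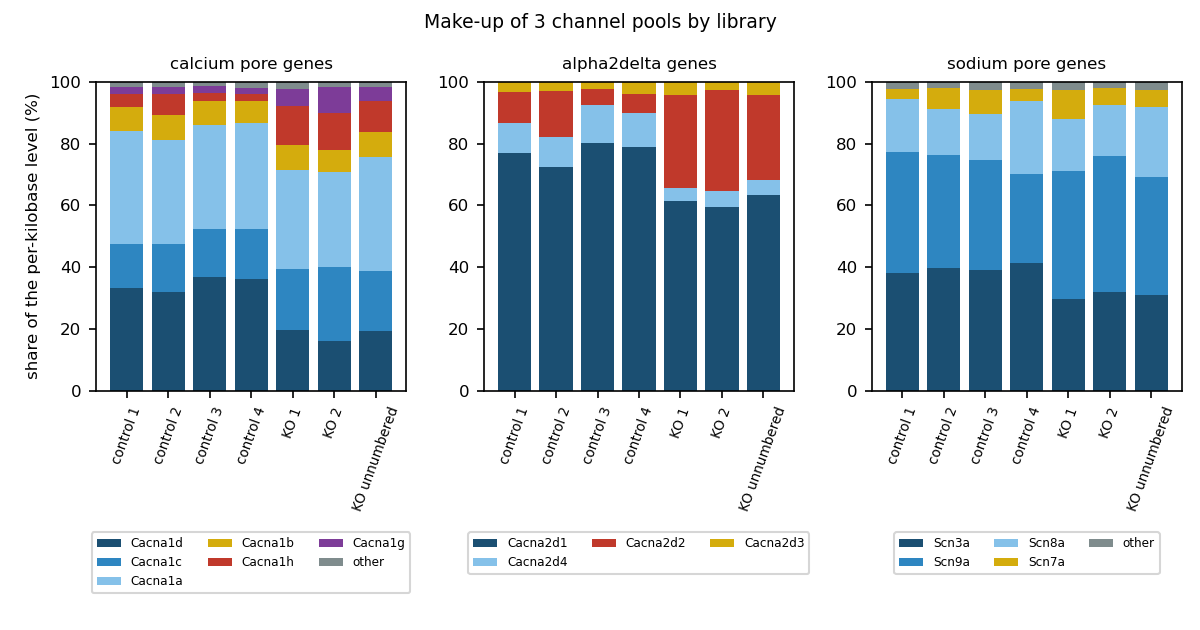
Share of each gene (y axis, %) in the summed level per kilobase of the calcium pore, alpha2delta and sodium pore genes, 1 bar per library. Cacna2d2 fills 5.17 to 15.1% of the alpha2delta bars in controls and 27.8 to 32.5% in KO, and Cacna1d fills less of the calcium pore bars in KO.

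All 4 alpha2delta genes had groups that did not overlap, against 12.0% of all genes tested. DESeq2 called 3 of the 4, against 4.51% of all genes tested, and edgeR called 1 of the 4, against 1.05%. Alpha2delta proteins sit outside the membrane, raise the number of channels at the surface and are the binding site of gabapentin in the case of Cacna2d1 and Cacna2d2. Cacna2d2 (ENSMUSG00000010066, chromosome 9, 107399612 to 107529343, plus strand) had 652, 1072, 311 and 410 normalized counts in controls and 2753, 3319 and 2448 in KO. Its controls were uneven, with control 2 the highest, and every KO library was above all of them. The mean rose 4.64-fold, from 612 ± 339 to 2840 ± 442 (log2 fold change 2.22, SE 0.48, DESeq2 adjusted p = 0.00032, edgeR adjusted p = 0.0314). The call held in all 7 DESeq2 fits that left out 1 library each, with log2 fold changes from 2.00 to 2.63.

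Cacna2d3 (ENSMUSG00000021991, chromosome 14, 28904943 to 29721864, minus strand) had 224, 217, 157 and 274 normalized counts in controls and 423, 309 and 396 in KO. The lowest KO library was near the highest control (log2 fold change 0.78, SE 0.26, DESeq2 adjusted p = 0.0484, edgeR adjusted p = 0.208), and the call was lost on leaving out any library but control 4, with adjusted p up to 0.459. Cacna2d4 (ENSMUSG00000041460, chromosome 6, 119236526 to 119352407, plus strand) moved the other way, from 732, 802, 872 and 886 in controls to 490, 655 and 487 in KO. KO 2 was the closest to the controls (log2 fold change -0.60, SE 0.17, DESeq2 adjusted p = 0.0167, edgeR adjusted p = 0.119). The adjusted p of Cacna2d4 was 0.0564 without control 2, 0.115 without control 3, 0.252 without KO 1, 0.165 without the unnumbered KO library and 0.111 without the 2 deepest libraries.

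Cacna2d1 was the most abundant alpha2delta gene in every library, at 7646, 8032, 7543 and 8151 normalized counts in controls and 8789, 9493 and 8740 in KO. All KO libraries lay above all controls by a small margin (log2 fold change 0.20, SE 0.09, adjusted p = 0.232). Per kilobase it was at 632 ± 23.7 in controls, and Cacna2d4 and Cacna2d2, at 86.8 ± 7.49 and 77.0 ± 42.6, could not be ordered beyond their spread. In KO, Cacna2d2 held second place at 357 ± 55.7, and the Cacna2d1 share of the alpha2delta sum was 61.4% ± 2.04 against 77.1% ± 3.34 in controls. The sum itself was 820 ± 56.7 in controls and 1183 ± 92.5 in KO.

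The calcium beta genes, which code for the subunits that bind the pore from inside the cell, gave no call in DESeq2 or edgeR, with 1 of the 4 at an unadjusted DESeq2 p under 0.05 (Cacnb2). Cacnb3 had the highest level per kilobase of any channel gene, at 1332 ± 71.3 in controls and 1304 ± 206 in KO. Its libraries held 5658, 5269, 5454 and 4985 normalized counts in controls and 4929, 6165 and 4592 in KO, with KO libraries on both sides of the controls (log2 fold change -0.03, SE 0.13, adjusted p = 0.998). Cacnb2 had 4032, 4891, 3552 and 4721 in controls and 4608, 5262 and 6703 in KO. KO 1 lay inside the range of the controls (log2 fold change 0.36, SE 0.16, adjusted p = 0.289). The log2 fold change of Cacnb1 was -0.03 (adjusted p = 0.998) and turned positive without control 4, at 0.036, and Cacnb4 was low, with at most 141 counts in a library (log2 fold change 0.80, adjusted p = 0.510).

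The gamma genes code for claudin-like membrane proteins, several of which are better known as TARPs, the auxiliary subunits of AMPA-type glutamate receptors. The most abundant of them in these cells, Cacng4 (ENSMUSG00000020723, chromosome 11, 107732357 to 107794557, minus strand), was lower in KO. It had 2613, 2842, 2283 and 2279 normalized counts in controls and 1477, 1297 and 1623 in KO. The groups were far apart, and the controls and the KO libraries each lay close together. The means were 2504 ± 274 and 1466 ± 163 (log2 fold change -0.77, SE 0.14, DESeq2 adjusted p = 3.79e-06, edgeR adjusted p = 0.0262), and the call held in all 7 DESeq2 fits that left out 1 library each.

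Cacng5 (ENSMUSG00000040373, chromosome 11, 107874605 to 107915055, minus strand) rose from a low level. It had 39.7, 101, 10.5 and 17.3 normalized counts in controls and 221, 256 and 175 in KO. The controls spanned a wide range with control 2 at the top, and the lowest KO library was above it. The means were 42.2 ± 41.4 and 217 ± 40.8 (log2 fold change 2.37, SE 0.63, DESeq2 adjusted p = 0.00685, edgeR adjusted p = 0.18). The adjusted p was 0.0916 without KO 1, 0.101 without KO 2 and 0.269 without the 2 deepest libraries. Cacng7 had 90.8, 89.6, 154 and 80.9 in controls and 50.8, 47.5 and 37.0 in KO, with no overlap, and missed the threshold (log2 fold change -1.20, SE 0.40, adjusted p = 0.0602). Without control 4 its adjusted p was 0.0335. For Cacng2, or stargazin, the log2 fold change was 0.95 (adjusted p = 0.464).

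Several channel genes lie side by side in the genome, and neighbours did not always move together. The pairs described first are those with an adjusted p for both genes and a call for at least 1. Cacng4 and Cacng5 are 80.0 kb apart on the same strand with no protein-coding gene between them, and Cacng4 was lower in KO while Cacng5 was higher. Cacna2d3 and Cacna1d lie 318 kb apart on chromosome 14, with 3 protein-coding genes between them, and Cacna2d3 was higher while Cacna1d was lower. Cacna1c and Cacna2d4 lie 40.1 kb apart on chromosome 6 on opposite strands, where Cacna2d4 was lower and Cacna1c, not past the threshold, had a positive log2 fold change. Among neighbours with no call, log2 fold changes had the same sign for Scn3a and Scn2a, Scn2a and Scn1a, and Scn9a and Scn7a. Their signs were opposite for Scn1a and Scn9a. Exons of genes on the opposite strand covered 4.7% of the Cacna1d exons, 1.6% of those of Cacna1h, 1.0% of those of Cacna2d2 and none of those of the other 5 called genes.

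For 3 of the called genes that have such a neighbour, Cacna2d3, Cacng5 and Cacna1d, the sequence before a start site is shown, since Nkx2-2 is a DNA-binding protein. Of the 8 called genes, these 3 and Cacna2d2 matched an entry in the RefSeq promoter table (GRCm38.p6), and Cacna1g, Cacna1h, Cacng4 and Cacna2d4 did not. The windows are the 4 from the matched genes that hold no annotated exon of the gene. Each is the 250 bases before a start site, read 5′ to 3′ on the strand of the gene (minus in all 4), with the letters AAGTG, the core of the NK2 family motif, in capitals. The Cacna2d3 window is chr14:29721865-29722114, the upstream Cacng5 window chr11:107915056-107915305, the downstream Cacng5 window chr11:107911363-107911612 and the window of a downstream Cacna1d start chr14:30353487-30353736.
Cacna2d3: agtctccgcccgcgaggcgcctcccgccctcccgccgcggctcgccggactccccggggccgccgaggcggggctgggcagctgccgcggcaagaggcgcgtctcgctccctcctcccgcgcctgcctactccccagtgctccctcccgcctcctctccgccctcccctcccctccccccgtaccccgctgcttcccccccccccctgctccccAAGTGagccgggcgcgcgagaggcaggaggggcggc
Cacng5, upstream start: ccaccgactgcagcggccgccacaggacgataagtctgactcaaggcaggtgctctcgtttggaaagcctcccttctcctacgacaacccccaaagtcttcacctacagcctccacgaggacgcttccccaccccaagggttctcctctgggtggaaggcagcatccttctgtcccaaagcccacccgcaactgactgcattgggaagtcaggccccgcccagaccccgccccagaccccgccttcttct
Cacng5, downstream start: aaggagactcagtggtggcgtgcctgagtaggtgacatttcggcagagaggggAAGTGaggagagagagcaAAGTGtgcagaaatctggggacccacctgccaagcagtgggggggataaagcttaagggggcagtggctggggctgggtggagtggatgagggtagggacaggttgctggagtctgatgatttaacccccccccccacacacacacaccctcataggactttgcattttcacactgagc
Cacna1d, downstream start: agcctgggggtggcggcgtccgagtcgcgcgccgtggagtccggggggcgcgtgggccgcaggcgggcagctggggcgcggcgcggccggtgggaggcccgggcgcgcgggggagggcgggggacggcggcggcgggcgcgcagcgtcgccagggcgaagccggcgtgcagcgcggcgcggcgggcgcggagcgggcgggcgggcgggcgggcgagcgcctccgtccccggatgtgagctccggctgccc

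AAGTG was searched on both strands (as CACTT on the other). It was found 1 time in the Cacna2d3 window, 36 bases before the start, and 2 times in the downstream Cacng5 window, 197 and 179 bases before the start. The upstream Cacng5 window and the Cacna1d window hold none. Of 32851 promoters of this length in the table, 40.7% hold AAGTG, and 12 of the 41 promoters of 30 channel genes hold it. The longer form TNAAGTG, which contains AAGTG, was in 10.1% of all promoters and in 4 of those 41. CACCC, the core recognized by Klf factors, was in 52.0% of all promoters and in 26 of the 41. These letter matches are descriptions and say nothing of binding.

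**Figure D5:**
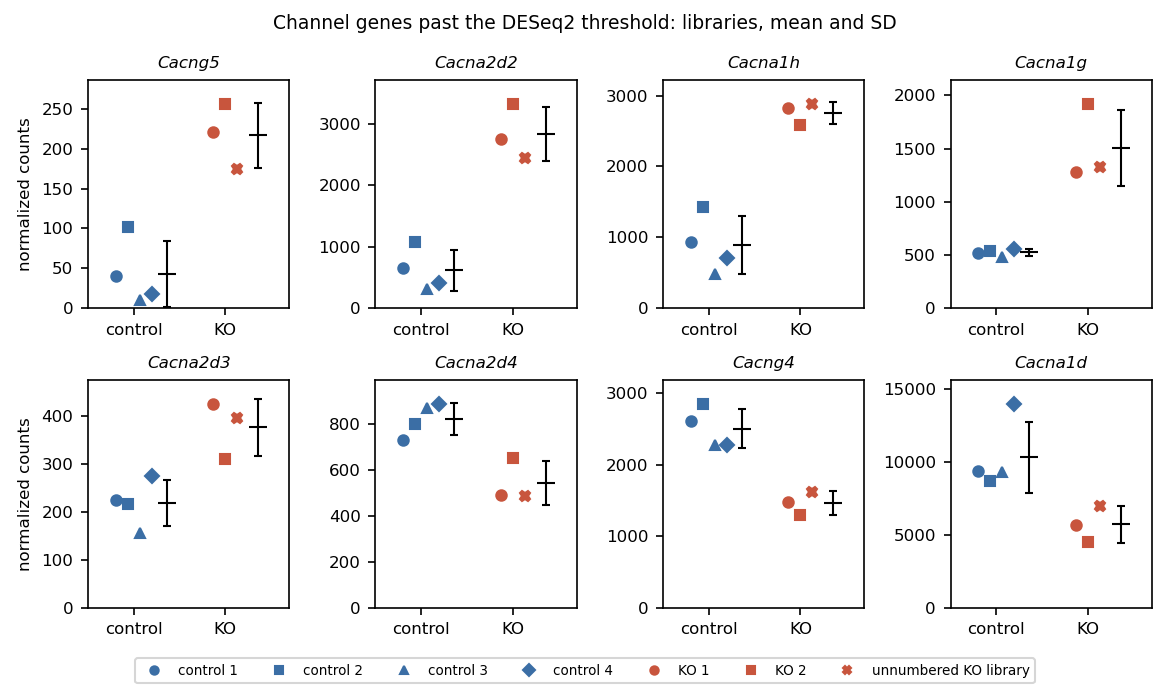
Normalized counts (y axis, from 0) of the 8 channel genes called in DESeq2, 1 symbol per library, with the mean and SD of each group beside it. In all 8 the 4 controls and 3 KO libraries do not overlap, and the gap is narrowest for Cacna2d3.

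Sodium pores gave no call in DESeq2 or edgeR, with 4 of the 10 at an unadjusted DESeq2 p under 0.05, among them Scn3a, Scn9a and Scn11a. How many of all genes were at that level was not counted. Levels per kilobase in controls were led by Scn3a, at 406 ± 74.2, and Scn9a, at 355 ± 21.4, which overlapped between libraries. Scn8a followed at 185 ± 72.3, Scn7a at 54.5 ± 22.0 and Scn2a at 12.2 ± 2.71. In KO the first of these was Scn9a, at 411 ± 11.2, above Scn3a, at 310.0 ± 30.5, in every library.

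Scn3a (ENSMUSG00000057182, chromosome 2, 65457118 to 65567627, minus strand) codes for Nav1.3, a pore found in islet cells and in developing neurons. It had 4416, 4383, 5066 and 6360 normalized counts in controls and 3657, 3629 and 4301 in KO. The groups did not overlap, and the unnumbered KO library came close to the lowest control (log2 fold change -0.39, SE 0.16, adjusted p = 0.17). Without the 2 deepest libraries the value was -0.35 with an adjusted p of 0.0267. None of the 7 DESeq2 fits that left out 1 library each called Scn3a. Their adjusted p ran from 0.0934 to 0.648 and was 0.297 without control 4. Scn9a (ENSMUSG00000075316, chromosome 2, 66480080 to 66634962, minus strand), which codes for Nav1.7, a pore best known from pain-sensing neurons, had 4694, 4142, 4748 and 4535 in controls and 5217, 5132 and 5410 in KO. Every KO library was above every control, and the difference was small (log2 fold change 0.21, SE 0.09, adjusted p = 0.253). Scn8a had 2525, 2079, 2471 and 4604 in controls and 2592, 2376 and 3974 in KO, with control 4 and the unnumbered KO library high (log2 fold change 0.03, SE 0.27, adjusted p = 0.999).

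The share of Scn3a in the summed sodium pore level was 38.01, 39.7, 38.99 and 41.4% in controls and 29.8, 31.9 and 31.1% in KO. Scn9a made up 28.8 to 39.4% in controls and 38.2 to 44.03% in KO, so that its shares overlapped. Among the low genes, Scn11a had 40.8, 18.9, 7.84 and 36.1 normalized counts in controls and 86.0, 31.0 and 97.8 in KO, with KO 2 below the highest control (log2 fold change 1.46, adjusted p = 0.308). The log2 fold change of Scn1a was -1.46 (adjusted p = 0.487) and that of Scn7a, which senses sodium and is not gated by voltage like the others, 0.31 (adjusted p = 0.934), and that of Scn2a -0.25 (adjusted p = 0.947).

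Of the sodium beta genes, none was called in DESeq2 or edgeR, and 1 of the 4 was at an unadjusted DESeq2 p under 0.05. Scn3b, the most abundant, had 886, 1461, 1079 and 1147 normalized counts in controls and 1471, 1017 and 1548 in KO, with KO 2 inside the range of the controls (log2 fold change 0.24, SE 0.21, adjusted p = 0.863). Scn2b had 368, 455, 458 and 318 in controls and 407, 508 and 234 in KO, with KO libraries on both sides of the controls (log2 fold change -0.06, SE 0.29, adjusted p = 0.998).

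Genes that bind, anchor, inhibit or act beside these channels were read from a list of 51 symbols, of which 50 were found and 49 had an adjusted p. DESeq2 called 3 of them higher and 2 lower in KO, against 4.51% of all genes tested (2.24% higher and 2.27% lower), and edgeR called 1 of 49, against 1.05%. Ank1, an ankyrin that ties membrane proteins to the spectrin skeleton, had 106, 193, 149 and 176 normalized counts in controls and 543, 437 and 532 in KO, with every KO library above every control (log2 fold change 1.69, SE 0.26, DESeq2 adjusted p = 1.04e-08, edgeR adjusted p = 0.0157). Cabp1, a calmodulin-like protein that binds calcium channel pores, had 157, 202, 99.4 and 122 in controls and 377, 220 and 362 in KO (log2 fold change 1.14, adjusted p = 0.0151), and Stx1a, a SNARE protein of the release machinery that binds calcium channels, had 1239, 1204, 1154 and 1343 in controls and 1615, 1683 and 1496 in KO (log2 fold change 0.37, adjusted p = 0.0415). In both genes the KO libraries lay above all controls. Sptbn4, a spectrin that clusters sodium channels in neurons, had 6527, 5332, 5554 and 7100 in controls and 4514, 3488 and 4592 in KO (log2 fold change -0.55, adjusted p = 0.00913), without overlap. Nrcam, an adhesion protein of the same clusters, had 1055, 653, 979 and 1023 in controls and 430, 706 and 401 in KO (log2 fold change -0.86, adjusted p = 0.0184), with KO 2 above control 2. Ank1 was called in all 7 DESeq2 fits that left out 1 library each. The call was lost in 2 of those fits for Sptbn4 (adjusted p up to 0.105), in 4 for Nrcam (up to 0.236), in 4 for Cabp1 (up to 0.273) and in 6 for Stx1a (up to 0.365). The other 44 partner genes were not past the threshold.

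Markers of other cell types were read beside these values. Ppy, the defining gene of gamma cells, had 211422, 401493, 231384 and 178540 normalized counts in controls and 615185, 783711 and 779688 in KO (log2 fold change 1.51). Control 2 was the highest control for Ppy, as it was for Cacna1h, Cacna2d2 and Cacng5. It was also the highest control for the summed beta, delta, duct, neuron, endothelial, and smooth muscle and pericyte markers. For the summed alpha, acinar, leukocyte and Schwann cell markers the highest was control 3. The summed level of the 4 delta cell markers ran from 196263 to 398978 in controls and from 355301 to 632402 in KO, with 1 called, Rbp4, higher, and 3 of the 4 at an unadjusted DESeq2 p under 0.05, all with positive fold changes. The 8 beta cell markers summed to 336739 to 690569 and 529402 to 973010. DESeq2 called 1 of them, Iapp, higher, and 4 of the 8 had an unadjusted p under 0.05, all with positive fold changes. No delta or beta cell marker was called in edgeR (adjusted p = 0.0761 for Rbp4 and 0.153 for Iapp). The share of all genes at an unadjusted DESeq2 p under 0.05 was not counted. The groups did not overlap for Rbp4, Iapp or Slc2a2. Their part in the channel results was not tested.

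The 3 duct markers summed to 139 to 652 in controls, with control 2 again the highest, and to 777 to 1171 in KO. None of the 3 was called in DESeq2 or edgeR, and 2 were at an unadjusted DESeq2 p under 0.05. The 4 neuron markers, whose cell type is rich in these channels, summed to 226 to 408 and 312 to 475. None of the 4 was called in DESeq2 or edgeR or had an unadjusted DESeq2 p under 0.05, and Chat, which marks cholinergic neurons, was at 0 in KO 1. The 3 Schwann cell markers summed to 582 to 906 and 636 to 771, and the 4 smooth muscle and pericyte markers, which mark a cell type rich in Cacna1c, to 123 to 328 and 133 to 434. The 3 endothelial markers summed to 111 to 151 and 80.2 to 407, and the 4 acinar markers to 255 to 9371 and 1511 to 5098. The 3 leukocyte markers summed to 850 to 1373 and 574 to 726, with C1qa called lower in DESeq2 (edgeR adjusted p = 0.140) and Ptprc at 0 in controls 1 and 2. Most of that sum was C1qa, at a control mean of 976, beside 60.2 for Cd68 and 5.95 for Ptprc. The log2 fold changes of Cd68 (0.51, adjusted p = 0.905) and Ptprc (1.30, no adjusted p) were positive. The part of these cell types in the channel results was not tested.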

How the data were processed

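Reporter-sorted alpha cells were lysed for RNA with Qiagen's RNeasy Micro kit, and sequencing used Takara SMARTer Stranded Total RNA-Seq v2 Pico libraries, per the labels' protocols. The authors deposited whole-number counts per gene and library. STAR, featureCounts, DESeq2 and mm10 are named in the submitters' processing notes, and the strand setting is not given in the sources used here. All 55536 identifiers are in GENCODE M21 (GRCm38), from which positions and exon lengths were taken. Of the counts from 1 to 10, 84.4 to 88.9% per library were even, so that the independent depth may be about 1 fragment per 2 counts.

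All 7 columns were used. The last KO column carries a number that no KO title has and is called the unnumbered KO library. All genes with a count entered 1 fit in DESeq2 1.42.0 under R 4.3.3 (no covariate, size factors by median of ratios, Wald test, independent filtering at 0.05, Benjamini-Hochberg adjustment over all genes, threshold 0.05), the test that the series' design text names. Unless edgeR is named, an adjusted p is from this fit. Counts of genes at an unadjusted DESeq2 p under 0.05 have no background beside them, since that share was not counted over all genes. The quasi-likelihood test of edgeR 4.0.16 was run beside it. A normalized count is the deposited count over the library's DESeq2 size factor, ± gives the SD, and log2 fold changes set KO over control. A level per kilobase divides normalized counts by the total exon length of the gene. A count of 0 allows up to 3 independent fragments, which may be more than 3 counts where both mates are counted, and covers counting error only.

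Values in every library are given for Cacna1a, Cacna1c, Scn9a and Scn3a, for genes called in DESeq2 or edgeR, and for the genes of each role with the highest control level per kilobase (3 of the pores, up to 2 of the others). Those of Cacna1b, Cacna1f, Cacna1i and Scn11a are given outside that rule. Partner genes are named where called. The members and lists were chosen with earlier results of these data known. Fits were tested on simulated counts with the same dispersion for every gene and known changes only in well-counted genes. The controls of Cacna1h, Cacna2d2 and Cacng5 were spread wider than that, so that the simulation does not cover such genes. Alternatives were other size factors, filters and tests, leaving out each library and the 2 deepest, and a block for the replicate number. The fits of edgeR without control 4 and of libraries 1 and 2 without a block were added after the data were seen. Of the partner symbols, Nalf1 was not matched, and its older name Fam155a was used. Values of some of the channel and marker genes are not reported here.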

Additional observations from a re-analysis of the deposited data

Results flagged for a closer look

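The control libraries of 30 genes were read for a library far from its nearest neighbour relative to the range of the group, which chance gives in about 1 of 20. The genes read include Cacna1b, Cacna1f, Cacna1i and Scn11a, which were named outside the rule for library values, so that the chance rate is only a guide. There were 4 such values. Control 4 held 13918 normalized counts of Cacna1d, and the next highest control held 9352. It also held 10535 normalized counts of Cacna1c, against 7059 in the next control, and 129 of Cacna1f, against 19.6. Control 3 held 154 normalized counts of Cacng7, and the next control held 90.8. Control 4 was 1.53 times the mean of the other controls for Cacna1d and 1.54 times for Cacna1c, and also 1.42 times for Cacna1a, 1.38 times for Scn3a and 1.95 times for Scn8a.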

How the results depend on the processing

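The count of called channel genes, 8 with all libraries in DESeq2, was 8 with TMM factors, 8 with library totals, 9 with a filter on low counts (Cacng7 added), and 7 without independent filtering or without the Cook's distance filter. It was 4 in edgeR and 4 in edgeR without control 4, and ran from 5 (without KO 1) to 11 (without control 4) when 1 library was left out. For all genes, 792 in DESeq2, it was 203 in edgeR, 249 in edgeR without control 4, and 430 to 910 with 1 library left out. It was 787 with TMM factors, 828 with the filter on low counts, 656 without independent filtering and 902 without the Cook's distance filter. With library totals as size factors, 684 genes were higher and 297 lower, against 394 and 398. Of the partner genes, 5 in DESeq2, edgeR called 1, edgeR without control 4 called 1, and fits without 1 library called 1 to 8. Without the 2 deepest libraries 8 of 30 channel genes were called, of which 5 were among the 8, against 880 of all 15919 genes tested.

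Replicate numbers 1 and 2 are shared by both groups. Deviations from the group means correlated at 0.29 and 0.283 between same-numbered libraries and at 0.068 and -0.11 between the others, over 12766 genes, and nothing in the labels says that a number marks a shared animal or day. With a replicate block on those 4 libraries DESeq2 called 7 of 29 channel genes and 3 of 45 partner genes, against 580 of all 15025 genes tested. Without the block it also called 7 and 3, against 622 of all 16156 genes tested.

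Over the genes named, 521 values under an alternative kept direction and side of the threshold, 77 lost the call, 10 gained one and 31 changed sign. The sign changes were in genes with log2 fold changes near 0, other than Cacna1f, and their cause was not tested. The log2 fold change of Cacnb3 was 0.063 with library totals, 0.020 without the 2 deepest libraries, 0.012 with the replicate block, 0.02 without it, and -0.17 (without KO 2) to 0.052 (without the unnumbered KO library) with 1 library left out. That of Cacna1a was -0.057 without the 2 deepest, -0.11 with the block, -0.12 without it, and -0.20 (without the unnumbered KO library) to 0.17 (without control 4) with 1 left out, or 0.18 in edgeR without control 4. That of Scn2b was 0.023 with library totals, 0.097 without the 2 deepest, 0.15 with and without the block, and -0.32 (without KO 2) to 0.19 (without the unnumbered KO library). That of Scn8a ran from -0.24 (without the unnumbered KO library) to 0.34 (without control 4), or 0.35 in edgeR without control 4. That of Cacna1b was -0.016 with the block, -0.014 without it, and -0.064 (without the unnumbered KO library) to 0.20 (edgeR without control 4). That of Cacnb1 was 0.070 with library totals, and -0.10 (without the unnumbered KO library) to 0.045 (without KO 2), and 0.044 in edgeR without control 4. That of Cacna1f was -1.74 without control 1 and 0.51 in edgeR without control 4. Leaving out a control leaves 3 libraries per group, and leaving out a KO library leaves 4 controls and 2 KO libraries. The 9 genes without an adjusted p had few counts.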
